A study of Mus musculus with 24 samples.

Results

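B cell progenitors that lacked both PLCgamma1 and PLCgamma2 were compared with common lymphoid progenitors (CLPs) of the same genotype and the same mice, to ask which genes differ across this step of B cell development when both enzymes are missing. The 6 libraries with the genotype PLCgamma1-/-PLCgamma2-/- were taken from the 24 of the series, 3 from CLPs and 3 from B cell progenitors, and the mouse identifier in their labels paired them into 3 mice. CLPs had been sorted as Lin-IL-7R+ bone marrow cells, with neither c-Kit nor Sca1 in the stated gate, and B cell progenitors as B220+IgM-IL-7R+ cells. Donors were adult mice on a mixed background of 129 and C57BL/6, with a floxed Plcg1 removed by MxCre after poly(I-C), germline loss of Plcg2 and a Rosa-YFP reporter of Cre. Their marrow had been transplanted into lethally irradiated CD45.1+ wild-type recipients, and CD45.2+ donor cells were sorted some weeks later. All donors of the series carried MxCre and the reporter and received poly(I-C), which acts through type I interferon. The mice of the study included both males and females. The wild-type PLCgamma1+/+PLCgamma2+/+, PLCgamma1-/-PLCgamma2+/+ and PLCgamma1+/+PLCgamma2-/- groups each had 3 mice and 2 libraries per mouse, and serve below to show where the step differed. The number of donors per genotype is not given in the sources used here, so the 3 mice are recipients, and p-values measure the spread between recipients alone.

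PLCgamma1 and PLCgamma2 cleave the membrane lipid PIP2 into inositol trisphosphate, which releases calcium, and diacylglycerol, which activates protein kinase C. PLCgamma2 works downstream of the pre-B cell receptor, the complex through which a developing B cell tests its first heavy chain, and IL-7 receptor signals through Jak1, Jak3 and Stat5 carry the cell up to that stage. CLPs are held to retain lymphoid options and turn to the B lineage when E2A, Ebf1, Foxo1 and Pax5 switch on the genes of the pre-B cell receptor and of V(D)J recombination.

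Reads on genes numbered 20429629, 12172383 and 25117842 in the CLP libraries of mice 1, 2 and 3, and 2858724, 25057223 and 7478166 in their B cell progenitor libraries, among 1479582 to 33219995 over all 24 libraries. Levels are given as normalized CPM, the reads of a gene per 1000000 reads on genes after TMM scaling, and differences as the log2 fold change of B cell progenitors minus CLPs within mice, with its standard error. A gene was called where edgeR's quasi-likelihood test gave an adjusted p (Benjamini-Hochberg) of 0.05 or less and the log2 fold change was 0.5 or more in size. Both populations also differed in the reads that fell outside genes. Reads on no gene made up 23.5%, 17.9% and 21.3% of the counted reads of the CLP libraries and 61.4%, 60.3% and 63% of those of the B cell progenitors, and ambiguous reads, those on more than 1 gene, 1.31% to 1.44% and 0.35% to 0.42%. Over all 4 genotypes the ranges did not overlap either, with 17.9% to 45.2% of reads on no gene in CLPs and 59.9% to 87.3% in B cell progenitors. Library preparation and counting are described once for both populations in the sources used here, and whether they were the same was not tested. In a bulk library, fewer cells of a type and less RNA per cell cannot be told apart.

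**Figure D1:**
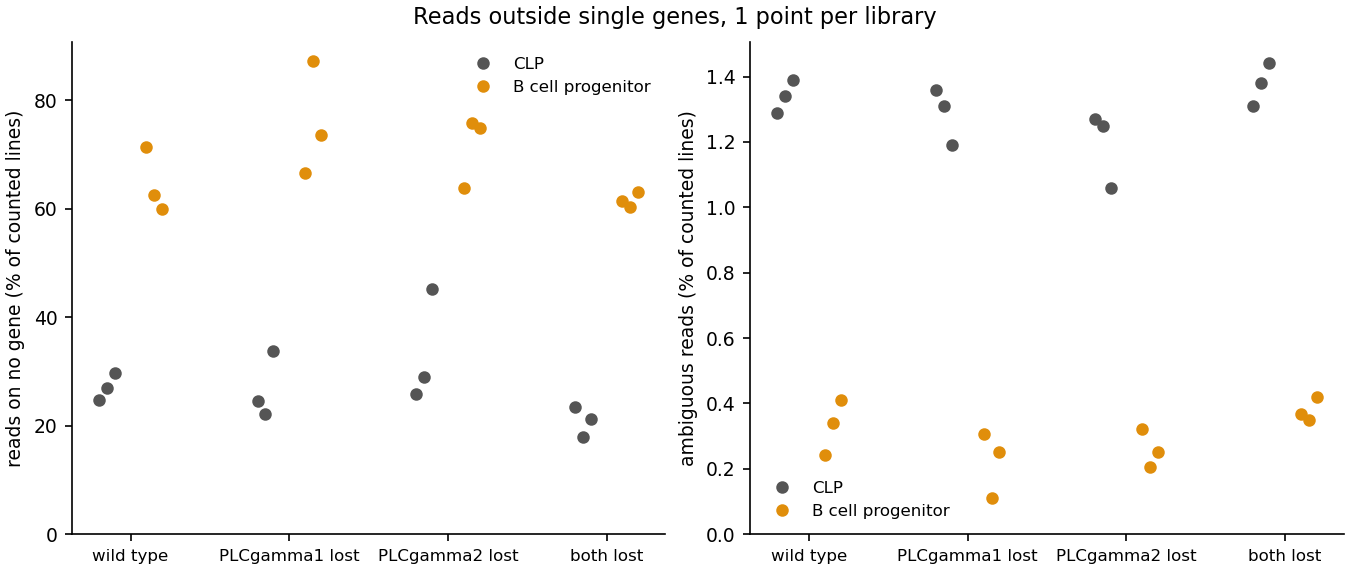
Percent of the counted lines that fell on no gene (left) and that were ambiguous (right), for each of the 24 libraries, by genotype and population. B cell progenitors lie above CLPs on the left and below them on the right in every genotype, and the libraries without both PLCgammas lie at 17.9% to 23.5% against 60.3% to 63% on the left.

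The targeted genes were examined first. Plcg2 stood at 115, 98.6 and 114 CPM in CLPs and at 72.1, 91.9 and 111 CPM in B cell progenitors of mice 1, 2 and 3, below all wild-type libraries, which lay at 196 to 282 CPM in CLPs and 212 to 247 CPM in B cell progenitors. Plcg1 stood at 87.5, 149 and 185 CPM in CLPs and at 56.1, 185 and 139 CPM in B cell progenitors, a range that overlapped the 81.2 to 113 CPM of wild-type libraries. The counts cover the whole gene, including exons outside a deletion, so the Plcg1 count checks nothing about its removal. Neither gene differed between the populations by the test (Plcg1 -0.24 ± 0.19, adjusted p = 0.575, and Plcg2 -0.27 ± 0.15, adjusted p = 0.416).

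The genes that define B lineage commitment were about as high in the cells sorted as CLPs as in the B cell progenitors. Ebf1, a factor that specifies B cells, stood at 190, 477 and 688 CPM in CLPs of mice 1, 2 and 3 and at 177, 938 and 602 CPM in B cell progenitors (0.23 ± 0.45, 95% interval -0.76 to 1.21). The groups overlapped, and mouse 1 was the lowest in each population. Averaged over 7 B lineage markers (Cd79a, Cd79b, Pax5, Ebf1, Vpreb1, Igll1 and Rag1), levels were 256, 574 and 761 CPM in CLPs and 260, 960 and 648 CPM in B cell progenitors. The same average was 103, 606 and 459 CPM in wild-type CLPs and 515, 571 and 399 CPM in wild-type B cell progenitors, so that 2 of 3 wild-type CLP libraries also carried it at the level of B cell progenitors. The average over 6 CLP markers (Il7r, Flt3, Kit, Cd27, Ly6d and Dntt) was 128, 326 and 212 CPM in CLPs and 133, 474 and 305 CPM in B cell progenitors. In mice 2 and 3 Dntt alone outweighed the other markers together in both populations. Dntt is also among the V(D)J genes below and was higher in B cell progenitors of each mouse. Both gates require Il7r, so a higher average does not mean that the remaining markers were higher. The study's culture methods count B220 among the lineage markers of Lin-, whereas the antibodies behind Lin- in the sort for sequencing are not given in the sources used here. Because the B lineage markers go against a population without commitment, CLP and B cell progenitor name the sorting gates here.

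**Figure D2:**
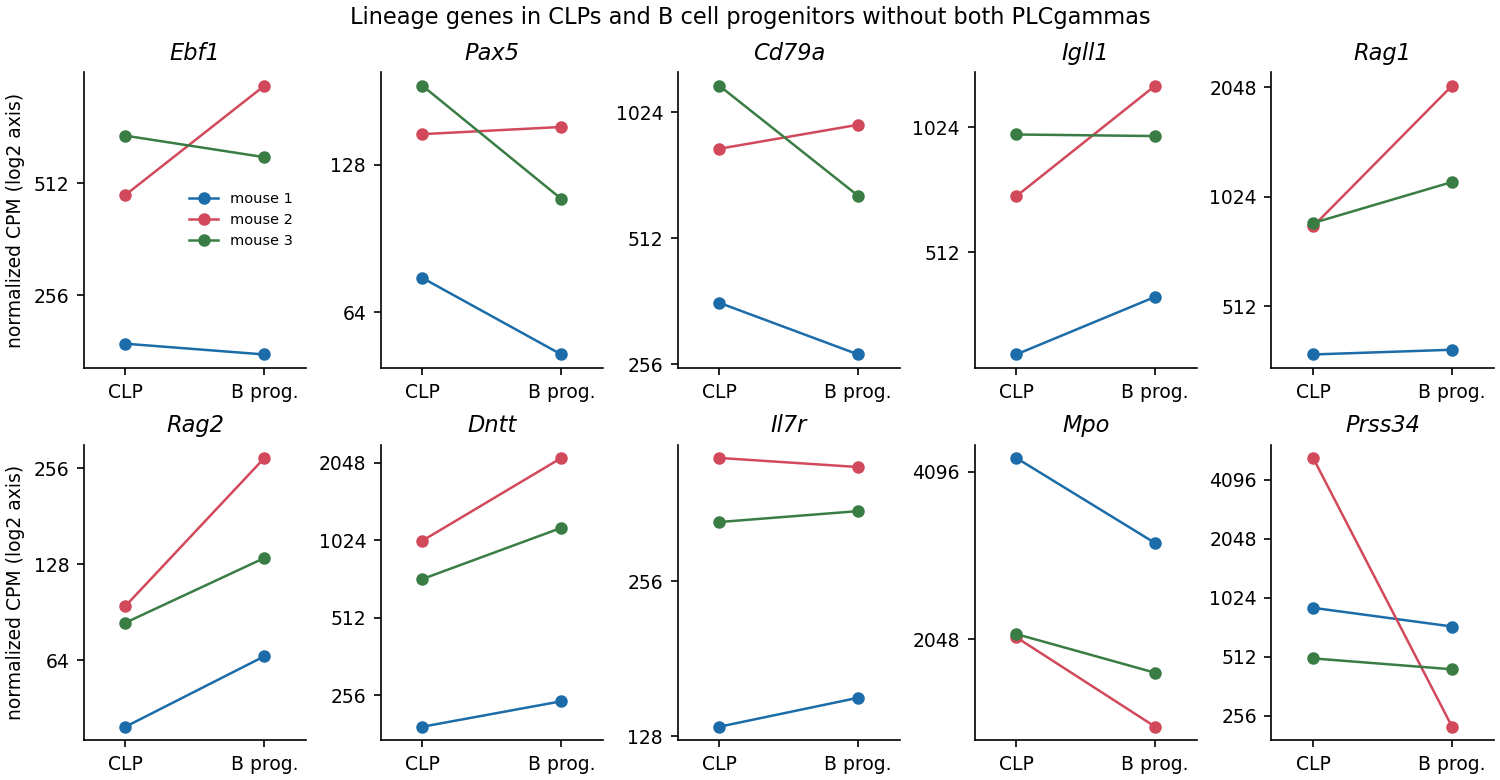
Normalized CPM (log2 axis) of 10 lineage genes in CLPs and B cell progenitors without both PLCgammas, with 1 line for each of 3 mice. Cd79a and Ebf1 of mouse 1 are the lowest in both populations, Rag2 and Dntt are higher in B cell progenitors of each mouse, and the CLP library of mouse 2 holds 5300 CPM of Prss34.

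Of 17212 genes tested, 588 (3.42%) were called, 522 (3.03%) higher and 66 (0.383%) lower in B cell progenitors, and in 21.3% of genes the 3 libraries of one population did not overlap the 3 of the other. Over 4 lists of B lineage genes with 68 members, all of them tested, 0 were called by edgeR. In that test 7 had an unadjusted p of 0.05 or less, beside 2989 of all 17212 genes. The median difference was 0.06, beside -0.04 over all genes tested. DESeq2 called 1 of the 68, Rag2, and edgeR on the 6 libraries alone called 3, Rag2, Dntt and Dclre1c, or Rag2, Dntt and Cd72 once these libraries were thinned to one depth. The groups did not overlap in 6 of the 68 (8.82%), and 35 had a 95% interval within 1 log2 unit of 0, as had 8749 of the 17212 genes. Mouse 1 was the lowest of the 3 mice in both populations in 40 of the 68 (58.8%), against 28.5% of all genes tested. The median difference within mice was -0.10, 0.34 and -0.08 in mice 1, 2 and 3. In wild type the 68 genes had a median of 0.40. The test of the difference between both steps gave 0 calls among them by edgeR and by DESeq2. By edgeR 3 of them had an unadjusted p of 0.05 or less, beside 356 of all 17212 genes.

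Of the 21 transcription factors of the B lineage, 0 were called, 4 were lower and 0 higher in B cell progenitors of each mouse, and the median was -0.03 (0.37 in wild type). Pax5, which locks in B cell identity, stood at 75.2, 148 and 186 CPM in CLPs and at 52.4, 153 and 109 CPM in B cell progenitors (-0.41 ± 0.45, adjusted p = 0.726). Foxo1, which acts with Ebf1, differed by 0.05 ± 0.30, and Tcf3, which encodes E2A, by -0.03 ± 0.30. Ikzf1, which encodes Ikaros, had the narrowest interval of those named here, at 467, 618 and 564 CPM against 417, 616 and 585 CPM (-0.04 ± 0.11, 95% interval -0.28 to 0.20). Ikzf3, which encodes Aiolos, a partner of Ikaros that rises as B cells mature, was the 1 factor without overlap. It stood at 94.9, 114 and 100 CPM in CLPs and at 66.9, 38.4 and 74.6 CPM in B cell progenitors, a difference of -0.84 ± 0.31 that did not pass the test (adjusted p = 0.171). In wild type Ikzf3 stood at a mean of 181 CPM in CLPs and 250 CPM in B cell progenitors. The step of Ikzf3 without both PLCgammas minus that of wild type was -1.28 (95% interval -2.22 to -0.35), with an unadjusted p of 0.0113 and an adjusted p of 1 in edgeR's test over all genes.

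The pre-B cell receptor pairs the heavy chain with a surrogate light chain, made from Igll1 and the Vpreb genes, and with the signal chains of Cd79a and Cd79b. Of the 14 genes of the receptor and its signalling, 0 were called, the groups overlapped in each of them, and differences ran from -0.36 to 0.44. Igll1 stood at 291, 699 and 984 CPM in CLPs and at 401, 1289 and 975 CPM in B cell progenitors (0.44 ± 0.43, adjusted p = 0.67). Vpreb1 stood at 204, 498 and 718 CPM in CLPs and at 221, 675 and 527 CPM in B cell progenitors (0.03 ± 0.43). Cd79a stood at 359, 837 and 1183 CPM in CLPs and at 270, 955 and 646 CPM in B cell progenitors (-0.36 ± 0.45). All 3 genes were lowest in mouse 1. Btk and Blnk, the kinase and adaptor that bring PLCgamma2 to the receptor, differed by 0.17 ± 0.13 and 0.33 ± 0.35, and Syk, which phosphorylates Blnk, by -0.13 ± 0.32.

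Igll1 and Vpreb1 are near neighbours on the minus strand of chromosome 16, in GRCm38 at positions 16860671 to 16863985 and 16868403 to 16870843, and E2A binds the E-box CAGGTG, read CACCTG on the other strand. The RefSeq promoter windows of GRCm38.p6, 250 bases before to 50 after a gene's start, are shown for both and for Rag1, as genes of the surrogate light chain and the recombinase, each with 1 E-box in capitals. The windows lie at chr16:16863936-16864235, chr16:16869206-16869505 and chr2:101649483-101649782, each on the minus strand. The Vpreb1 window lies inside the span of the gene given above, which starts at 16870843. The RefSeq start used for this window therefore differs from the start of that GENCODE gene model. A match is a description of these letters and not a bound site. Of 72 windows found for 55 of the 68 B lineage genes, 18 (25%) held an E-box, as did 20.2% of all 32851 windows.
Igll1: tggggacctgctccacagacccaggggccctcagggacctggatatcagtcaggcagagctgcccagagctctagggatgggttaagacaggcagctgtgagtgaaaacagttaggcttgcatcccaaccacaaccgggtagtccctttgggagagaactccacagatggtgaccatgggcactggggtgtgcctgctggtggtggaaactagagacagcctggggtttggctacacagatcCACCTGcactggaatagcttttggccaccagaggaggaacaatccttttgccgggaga
Vpreb1: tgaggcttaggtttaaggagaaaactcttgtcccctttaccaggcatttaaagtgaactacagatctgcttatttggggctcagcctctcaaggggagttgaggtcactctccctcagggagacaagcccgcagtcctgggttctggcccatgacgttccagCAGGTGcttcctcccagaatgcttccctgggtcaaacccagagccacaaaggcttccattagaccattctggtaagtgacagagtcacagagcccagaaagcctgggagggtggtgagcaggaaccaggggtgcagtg
Rag1: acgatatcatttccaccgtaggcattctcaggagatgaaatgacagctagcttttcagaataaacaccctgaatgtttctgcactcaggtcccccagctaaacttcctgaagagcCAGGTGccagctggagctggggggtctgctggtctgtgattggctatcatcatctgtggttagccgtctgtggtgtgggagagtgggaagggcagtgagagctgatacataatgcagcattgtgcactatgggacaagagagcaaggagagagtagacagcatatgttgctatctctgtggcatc

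Of the 15 genes of V(D)J recombination 0 were called in the fit of all libraries, the median was 0.40 (0.37 in wild type), and 10 were higher in B cell progenitors of each of 3 mice (66.7%, against 20.9% of all genes tested), with 0 lower in each mouse. Rag2, which with Rag1 forms the recombinase, stood at 39.6, 94.7 and 83.9 CPM in CLPs and at 65.9, 276 and 134 CPM in B cell progenitors, a difference of 0.99 ± 0.31 (95% interval 0.33 to 1.65, adjusted p = 0.105). DESeq2 called Rag2 (adjusted p = 0.0311), and edgeR on the 6 libraries alone called Rag2 (adjusted p = 0.0348) and also Dntt and Dclre1c (adjusted p = 0.0491 for each). Rag1, its neighbour on chromosome 2, stood at 378, 849 and 867 CPM in CLPs and at 389, 2066 and 1124 CPM in B cell progenitors (0.57 ± 0.43, adjusted p = 0.562). Dntt, the terminal transferase that adds bases at the joints, stood at 193, 1019 and 723 CPM in CLPs and at 243, 2135 and 1143 CPM in B cell progenitors (0.69 ± 0.50, adjusted p = 0.542). The groups overlapped for all 3 genes, while each mouse was higher in B cell progenitors, by most in mouse 2. Of the joining factors, Dclre1c, the hairpin opener Artemis, differed by 0.49 ± 0.17 without overlap (adjusted p = 0.135) and Xrcc4, a partner of the ligase, by 0.50 ± 0.23 without overlap (adjusted p = 0.279). Exons of Dclre1c and Xrcc4 overlap other genes in 4.5% and 7.3% of their length. The median GC content of transcripts of the list was 44.1%, below the 49.8% over all genes tested, a property that moves with the difference between both populations, as given below. The median of the list was 0.16 with an offset for GC content and 0.14 without mouse 2.

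Surface molecules of B cells numbered 19, with 0 called and a median of 0.14 (0.59 in wild type). Cd72, a co-receptor that restrains B cells, stood at 66.8, 78.1 and 66.9 CPM in CLPs and at 79, 132 and 161 CPM in B cell progenitors (0.77 ± 0.36, adjusted p = 0.306), without overlap of the groups, and 51.4% of its exon length overlaps another gene on the opposite strand. Enpep, the BP-1 antigen of later pro-B cells, had the lowest difference of the list, at 123, 339 and 424 CPM in CLPs and 137, 112 and 146 CPM in B cell progenitors (-1.02 ± 0.44, adjusted p = 0.251). Both genes were chosen after their values were seen.

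The receptor that both gates require differed little. Il7r stood at 134, 445 and 334 CPM in CLPs and at 152, 427 and 351 CPM in B cell progenitors (0.07 ± 0.12, 95% interval -0.19 to 0.32), in the same order of mice in both. Of the 19 genes of IL-7 receptor signalling 0 were called and 8 were lower in B cell progenitors of each mouse (42.1%, against 23.3% of all genes tested), with a median of -0.27 (-0.32 in wild type). The median GC content of the list was 54.8%, above the 49.8% over all genes tested. Genes of 53.3% to 55.4% GC whose exons overlap no other gene had a median of -0.24. Pim2, a survival kinase induced by Stat5, stood at 23.3, 29.4 and 21.3 CPM in CLPs and at 15.4, 14.5 and 13.6 CPM in B cell progenitors, without overlap (-0.76 ± 0.23, adjusted p = 0.0954, and 0.0363 by DESeq2, which called it). Cish, another Stat5 target, differed by 0.05 ± 0.29 and Socs2 by 0.14 ± 0.36. Jak3 differed by -0.27 ± 0.29, Stat5b by -0.19 ± 0.22 and the survival factor Mcl1 by 0.17 ± 0.17. Ptprc, whose B220 form the B cell progenitor gate requires, stood at 494, 478 and 449 CPM in CLPs and at 530, 427 and 568 CPM in B cell progenitors, where gene counts do not separate its forms.

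Of 15 tested phospholipase C genes 0 were called, and the median was -0.06 (-0.21 in wild type). Plcb2, which G proteins activate, was the 1 member without overlap of the groups. It stood at 207, 248 and 174 CPM in CLPs and at 153, 165 and 137 CPM in B cell progenitors (-0.45 ± 0.33, adjusted p = 0.546). Plcl2, which lacks catalytic activity, differed by 0.02 ± 0.09 (95% interval -0.19 to 0.22). Downstream, 0 of 28 genes of the diacylglycerol branch and 0 of 22 of the calcium branch were called, with medians of -0.03 and -0.25 (0.10 and -0.03 in wild type). In the calcium branch 12 of 22 genes were lower in B cell progenitors of each mouse (54.5%, against 23.3% of all genes tested).

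**Figure D3:**
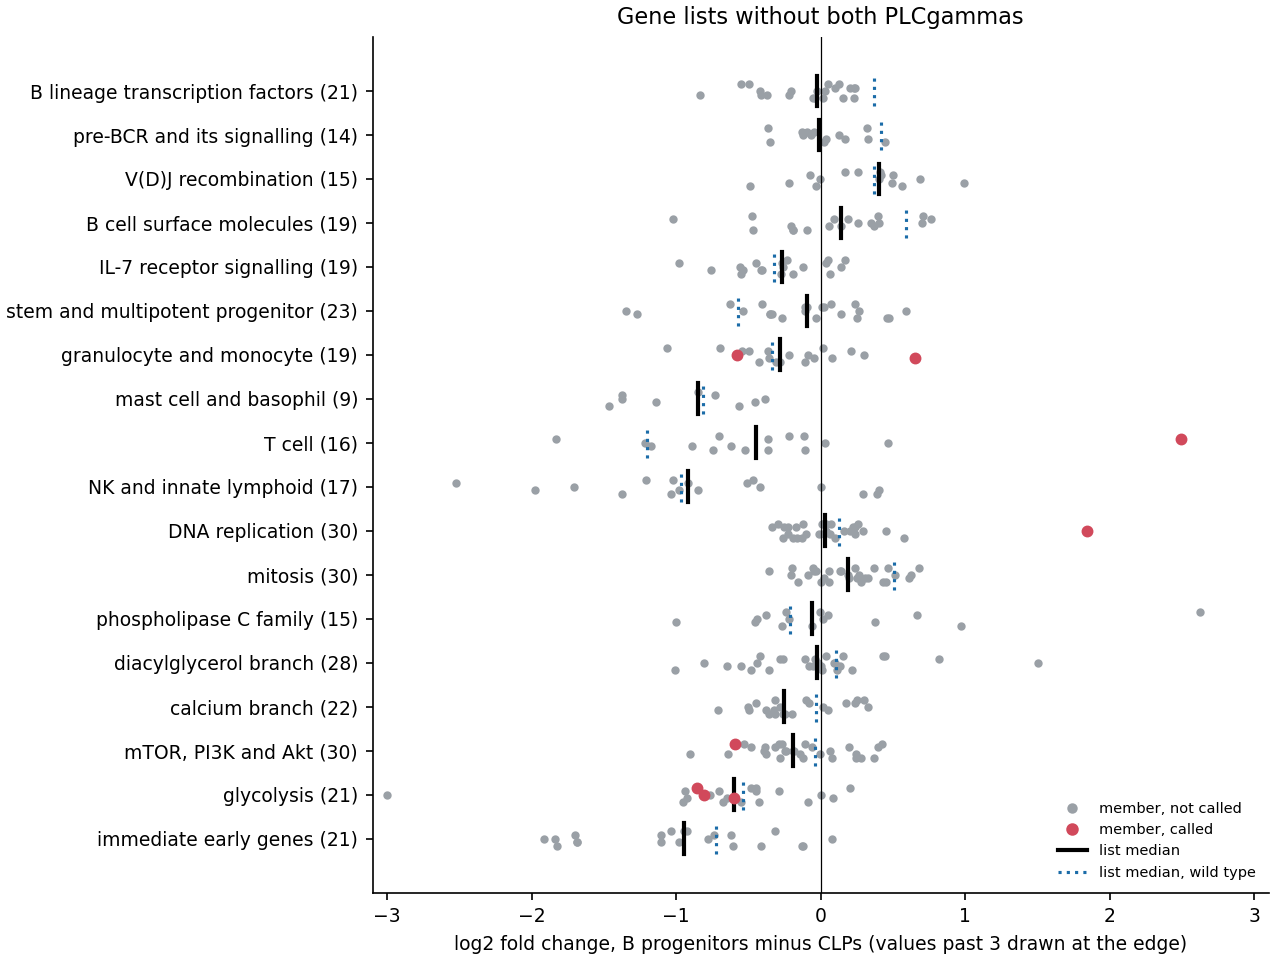
Log2 fold change of B cell progenitors minus CLPs without both PLCgammas for the tested members of 18 gene lists (number of members in brackets), with called members in red, the list median as a black bar and the wild-type median as a dotted bar. The 4 B lineage lists at the top hold 0 called members, and glycolysis, with 3 called lower, has a median of -0.60.

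Of 530 genes in 30 lists, 9 were called, 3 higher and 6 lower, beside 3.42%, 3.03% and 0.383% of all genes tested. Glycolysis held 3 of the 6. Of its 21 genes 3 were called lower, 16 were lower in B cell progenitors of each mouse (76.2%, against 23.3% of all genes tested), and the groups did not overlap in 12 (57.1%, against 21.3%). The median was -0.60 (-0.54 in wild type). Gapdh fell from 574, 616 and 662 CPM in CLPs to 316, 384 and 324 CPM in B cell progenitors (-0.86 ± 0.11, adjusted p = 0.000597). Slc2a1, the glucose transporter Glut1, fell from 31.7, 41.2 and 41 CPM to 19.7, 22.2 and 23.2 CPM (-0.81 ± 0.20, adjusted p = 0.0431). Pgam1 fell from 56.9, 38.3 and 35.2 CPM to 34.1, 24.4 and 26.4 CPM (-0.60 ± 0.14, adjusted p = 0.0349). All 3 were lower in each mouse, and the groups did not overlap. Pkm and Ldha, the last steps to lactate, did not pass the test, with differences of -0.48 ± 0.13 (adjusted p = 0.0624) and -0.43 ± 0.11 (adjusted p = 0.0556) and no overlap of the groups. Pgk1, in the middle of the pathway, differed by -0.09 ± 0.13. The median GC content of the list was 53.5%, above that of all genes, and with an offset for GC content its median was -0.41 and Gapdh alone remained called (-0.64, adjusted p = 0.003). Gapdh was called without mouse 1 and without mouse 2 but not without mouse 3 (adjusted p = 0.0627), and Slc2a1 and Pgam1 were not called when any 1 mouse was left out. Gapdh, Pgam1 and Eno1 have near-identical copies elsewhere in the genome, which makes their counts uncertain, and Eno1 is listed at 1.24, 1.43 and 1.24 CPM in CLPs and at 0 in B cell progenitors.

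The other called list members were few. Akt2, a kinase downstream of PI3K, fell from 105, 106 and 101 CPM to 66.2, 76.7 and 64 CPM (-0.59 ± 0.13, adjusted p = 0.0211), while 29 other genes of the mTOR, PI3K and Akt list were not called and their median was -0.19. Bax, which opens the mitochondrial membrane in apoptosis, fell from 88.2, 86.3 and 85.3 CPM to 68.8, 63 and 51.4 CPM (-0.52 ± 0.12, adjusted p = 0.0278). With the GC offset neither Akt2 nor Bax was called (adjusted p = 0.132 and 0.642). Of DNA replication genes, 1 of 30 was called, the cyclin Ccne2, at 28.7, 34.9 and 31.9 CPM in CLPs and 96.7, 150 and 102 CPM in B cell progenitors (1.85 ± 0.22, adjusted p = 0.000208), the 1 called list member that was also called without each of the mice in turn. Exons of Ccne2 overlap those of Ints8 on the other strand over 10.5% of their length, and Ints8 was called higher too (1.25 ± 0.13, adjusted p = 7.47e-05). Mitosis genes were not called, with a median of 0.19 (0.51 in wild type) and 13 of 30 higher in each mouse (43.3%, against 20.9% of all genes tested). On the 6 libraries alone edgeR called 3 of them higher (Kif20a, Nusap1 and Ccna2), and the median was 0.00 without mouse 2 and 0.06 with the GC offset. The remaining lists held 0 called members in edgeR's fit of all libraries, with medians of -0.09 for 23 stem and multipotent progenitor genes, -0.92 for 17 NK and innate lymphoid genes, 0.08 for 14 macrophage genes, 0.11 for 14 genes of plasmacytoid dendritic cells and -0.03 for 10 genes of MHC class II. They were 0.03 for 22 interferon-stimulated genes, -0.15 for 14 Notch receptors and targets, -0.22 for 18 homing and adhesion genes and -0.02 for 20 genes of cholesterol synthesis. They were -0.14 for 11 erythroid and megakaryocyte genes, 0.03 for 11 genes of mature B and plasma cells, 0.11 for 10 genes of stroma and endothelium and 0.03 for 14 D cyclins and cell cycle inhibitors. Of these lists edgeR on the 6 libraries alone called Slc4a1, Cdkn1a and Notch1 lower and Jchain higher (adjusted p = 0.0315, 0.0346, 0.045 and 0.0477), and DESeq2 called Cd68 lower (adjusted p = 0.0473), genes named here after their values were seen. The NK median rested on mouse 2, with 0.01, -2.53 and 0.07 within mice 1, 2 and 3 and 0.07 without mouse 2, and the stem and erythroid medians were 0.13 and 0.08 without that mouse.

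Genes of other lineages were present in both gates. The sum over 19 granulocyte and monocyte genes was 11490, 5422 and 8148 CPM in CLPs of mice 1, 2 and 3 and 10240, 3741 and 8323 CPM in B cell progenitors, with mouse 2 the lowest in both. Mpo, the myeloperoxidase of early myeloid cells, stood at 4335, 2065 and 2093 CPM in CLPs and at 3048, 1426 and 1783 CPM in B cell progenitors (-0.42 ± 0.24, adjusted p = 0.41). Of this list, S100a8, a calgranulin subunit, was called higher (266, 118 and 482 against 455, 161 and 805 CPM, 0.66 ± 0.16, adjusted p = 0.0421) and Csf2ra, the receptor for GM-CSF, lower (264, 109 and 159 against 167, 76.8 and 107 CPM, -0.58 ± 0.11, adjusted p = 0.0131). The groups overlapped for both while each mouse moved in the same direction, and neither was called without the mouse block (adjusted p = 0.723 and 0.574). The CLP library of mouse 2 stood apart by mast cell and basophil genes, whose sum was 8710 CPM there, against 1674 and 886 CPM in CLPs of mice 1 and 3 and 1642, 447 and 912 CPM in B cell progenitors. Prss34, a basophil protease, stood at 5300 CPM in that library and at 225 to 910 CPM in the other 5, and Gata2 at 1128 CPM against 46.8 to 241 CPM. Within mice the median difference of the mast cell and basophil list was 0.14, -3.80 and 0.03, and over the list it was -0.85 with mouse 2 and 0.07 without. The same library held 17590 CPM of 21 immediate early genes, against 2697 to 10420 CPM in the other 5. The immediate early genes had 20 of 21 negative differences with 0 called and a median of -0.95, which was -0.39 without mouse 2. The part of these genes in other results was not tested, and the counts without mouse 2 are given in the closing section.

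Among T cell genes Cd247, the zeta chain of the T cell receptor, was called higher, from 5.06, 6.52 and 6.36 CPM to 20.7, 42.2 and 41.6 CPM (2.49 ± 0.53, adjusted p = 0.0193). The other 15 tested T cell genes were not called and the median over the list was -0.44. Exons of Cd247 overlap those of Pou2f1, which encodes Oct-1, on the other strand over 64% of their length. On chromosome 1 in GRCm38, Cd247 spans positions 165788681 to 165877277 and Pou2f1 positions 165865154 to 166002678.

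This arrangement was common among the genes called higher. Of 2046 tested genes whose exons overlap a counted gene on the opposite strand, 298 (14.6%) were called higher and 4 lower, whereas of 14243 with no overlap 183 (1.28%) were called higher and 60 lower. The median difference of those called higher was 2.32 in the first class and 0.69 in the second. The share called higher was 6.88% where at most 10% of exon bases overlapped, 18.8% from 10 to 25%, 28.3% from 25 to 50%, 41.7% from 50 to 75% and 37.5% above that, and the median difference over all genes of these classes went from 0.02 to 3.55. For 236 of the 298 genes the partner was at the higher level in both populations. The median was 47.8 CPM in CLPs for the partners against 3.07 CPM for the called genes. Of the partners 89 were themselves called higher and 2 lower, so that some pairs are counted from both sides. NEBNext Ultra RNA libraries do not keep the strand, and the strand setting of the counting is not given in the sources used here. Reads on the bases that a gene shares with its partner therefore cannot be told apart. The median shared part of the 298 genes was 20% of exon bases. Where the reads of the 298 genes fell within their exons was not tested. In wild type 321 genes of the overlapping class were called higher and 5 lower.

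**Figure D4:**
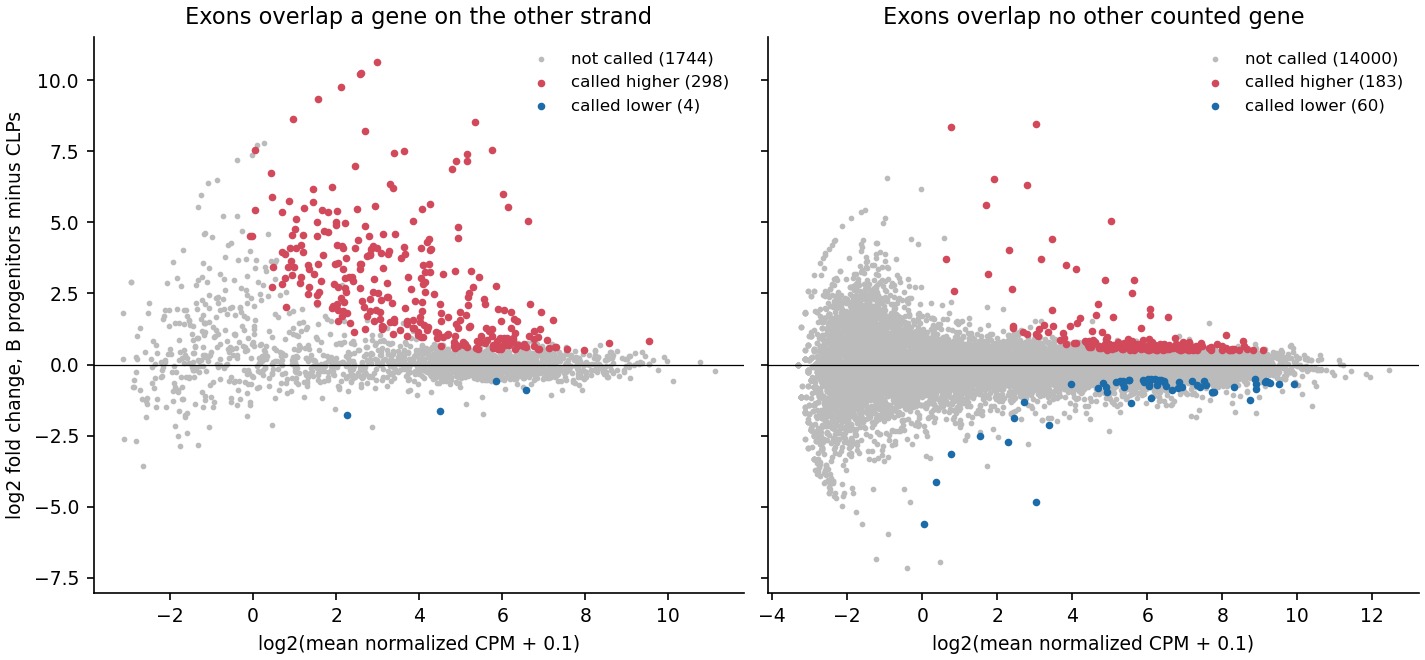
Log2 fold change of B cell progenitors minus CLPs against the mean level, log2(mean normalized CPM + 0.1), for genes whose exons overlap a counted gene on the other strand (left, 2046 genes) and for genes that overlap none (right, 14243 genes). Of the left class 298 genes are called higher and 4 lower, and of the right class 183 and 60.

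Of the 10 largest rises, 8 were of this kind. Bricd5 was at 0 in CLPs and at 16.4, 15.8 and 14.6 CPM in B cell progenitors, a count at least 299.8-fold higher against a floor of 3 reads over the 3 CLP libraries. All of its exon bases lie within exons of Mlst8, a subunit of the mTOR complexes on the opposite strand of chromosome 17, and Mlst8 itself stood at 23.6, 21.5 and 24.6 CPM against 31.1, 33.9 and 26.9 CPM (0.40 ± 0.15, adjusted p = 0.184). Sco2, which delivers copper to cytochrome oxidase, and Msmp, opposite Ncaph2 and Rgp1, were also at 0 in CLPs. Their counts were at least 230.0-fold and 224-fold higher against the same floor. The overlap covered 72.4% of the exon bases of Sco2 and 100% of those of Msmp. The floor covers counting error only, and on shared bases such a fold describes the counts and not the RNA of the gene itself. Tsix, the antisense RNA of Xist, stood at 0.191, 0.357 and 0.124 CPM against 75.1, 101 and 66.7 CPM (8.54 ± 0.54, adjusted p = 6.13e-06), while Xist stood at 2033, 1680 and 1381 CPM against 1656, 2086 and 1589 CPM (0.07 ± 0.45). In wild type Xist stood at a mean of 149 CPM in CLPs and 74.8 CPM in B cell progenitors. The study used mice of both sexes, and whether sex differed between these genotypes was not tested. Gm15441, opposite Txnip, went from 0.334, 0.714 and 0.702 CPM to 118, 107 and 98.3 CPM (7.53 ± 0.39, adjusted p = 3.35e-07). Masp2, a complement protease opposite Tardbp, differed by 7.44 ± 0.61 (adjusted p = 1.03e-05) and Zfp385c, opposite Nkiras2, by 7.51 ± 0.56 (adjusted p = 4.18e-06). The overlap covered 36.7% of the exon bases of Gm15441 and 56.3% of those of Masp2, but only 2.4% of those of Zfp385c. E130218I03Rik, opposite Zfp593, stood at 0, 0 and 0.0825 CPM against 12.5, 12.5 and 13.2 CPM. The other 2 were Mir1198, with no overlap, and LOC100503496, with no gene model.

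The microRNA genes Mir142 and Mir142b show the arrangement at the scale of a sequence. Reads counted at a microRNA gene in a poly(A) library come from longer transcripts and do not measure the mature microRNA. Mir142 and Mir142b lie on opposite strands of chromosome 11 in GRCm38, at chr11:87756864-87756927 on the plus strand and chr11:87756841-87756955 on the minus strand, and share all 64 bases of the Mir142 hairpin. Mir142 was at 0 in the 3 CLP libraries and at 5.57, 3.22 and 8.48 CPM in B cell progenitors (adjusted p = 0.0137), and Mir142b stood at 4.15, 5.36 and 4.7 CPM against 23.9, 10.6 and 26 CPM (2.00 ± 0.42, adjusted p = 0.0194). Both were chosen after their values were seen, among 49 tested microRNA genes of which 9 were called higher and 1 lower. Of the 9, 4 overlap a gene on the opposite strand and 4 had no overlap. Over all genes tested 3.03% were called higher and 0.383% lower. The RefSeq mature sequences below are complementary over 20 shared bases, with the seed, bases 2 to 8, in capitals, and those of miR-1198 are added as the microRNA gene among the largest rises, whose level was 0.0954, 0 and 0 CPM in CLPs and 8.52, 14 and 25.8 CPM in B cell progenitors for Mir1198 (adjusted p = 2.05e-05).
miR-142a-3p: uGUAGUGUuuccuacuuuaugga
miR-142b: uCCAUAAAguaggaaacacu
miR-1198-5p: uAUGUGUUccuggcuggcuugg
miR-1198-3p: aAGCUAGCcucuaacucauggc

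The 10 largest falls were smaller in size, and 8 of them had no overlap. Dynlt1b, a dynein light chain with near-identical neighbours, which makes its count uncertain, fell from 15.6, 16.2 and 15.5 CPM to 0.328, 0.729 and 0.397 CPM (-4.84 ± 0.45, adjusted p = 2.64e-05). Ribosomal protein genes made up 3 of the 10. Rps16 fell from 609, 587 and 608 CPM to 271, 256 and 238 CPM (-1.24 ± 0.09, adjusted p = 3.24e-06), Rpl27 by 0.97 ± 0.11 and Rpl29 by 0.96 ± 0.10 on the log2 scale (adjusted p = 0.000193 and 7.3e-05). Over 71 ribosomal protein genes, a family chosen after its values were seen, 7 were called lower and 2 higher. Over all genes tested 0.383% were called lower and 3.03% higher. The median of the family was -0.08. Ribosomal protein genes have many processed copies in the genome, which makes their counts uncertain. Celsr1, an adhesion receptor of planar cell polarity, fell from 83, 95.6 and 107 CPM to 39.3, 53.6 and 36 CPM (-1.16 ± 0.19, adjusted p = 0.00414), and the kinase Tnk2 fell from 91.6, 167 and 115 CPM to 58.3, 65 and 72 CPM (-0.90 ± 0.22, adjusted p = 0.0389). In wild type these differed by -0.27 (adjusted p = 0.515) and -0.06 (adjusted p = 0.948), and the difference between both steps was -0.89 (95% interval -1.48 to -0.30) for Celsr1 and -0.84 (95% interval -1.50 to -0.19) for Tnk2, with an adjusted p of 1 for each. Tnk2 was not called when any 1 mouse was left out, Celsr1 not without mouse 3 (adjusted p = 0.134), and Hipk2 not without mouse 1 or mouse 3 (adjusted p = 0.15 and 0.193). Gstp1, a glutathione transferase with a near copy, fell by 1.35 ± 0.16, Hipk2, a nuclear kinase, by 0.96 ± 0.19, Erh by 1.65 ± 0.21 and AI506816 by 2.13 ± 0.27 on the log2 scale (adjusted p = 0.000297, 0.0116, 0.000356 and 0.000388).

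Among the 14243 genes without overlap the difference moved with the GC content of the transcript. In the 10% of genes with the lowest content, 29.6% to 41.9%, the median was 0.39, with 96 genes called higher and 1 lower, and in the highest 10%, 57.8% to 82.2%, it was -0.30, with 8 higher and 14 lower. Each mouse showed the same order, from 0.28, 0.41 and 0.35 in the lowest of mice 1, 2 and 3 to -0.29, -0.26 and -0.27 in the highest, and wild type went from 0.38 to -0.34. The median GC content was 41.2% in the 183 genes called higher, 55.3% in the 60 called lower and 49.6% in the class. Zinc finger genes of the Zfp family, chosen after their values were seen, had 27 of 348 called higher and 0 lower. Over all genes tested 3.03% were called higher and 0.383% lower. The Zfp family had a median of 0.22 (0.19 in wild type) and a median GC content of 45.6%.

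**Figure D5:**
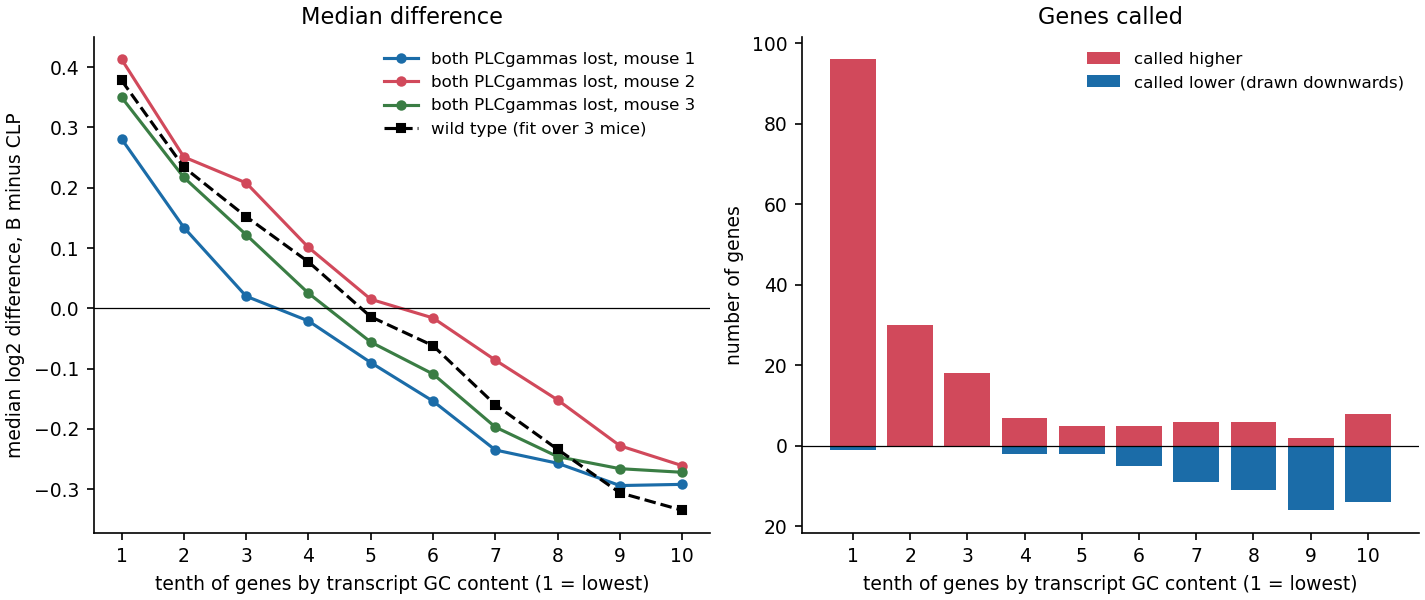
Median log2 difference of B cell progenitors minus CLPs over 10 equal classes of the 14243 genes without overlap, by transcript GC content, for each mouse without both PLCgammas and for wild type (left), and the number of genes called higher and lower without both PLCgammas (right). Medians decline from the lowest to the highest class in all 4 lines, and 96 of the genes called higher lie in the lowest.

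With overlapping genes left out and an offset for GC content in the fit, both chosen after seeing the data, 42 of 14335 genes were called, 32 higher and 10 lower. Of genes at 10 CPM or more, chosen from these 42 after their values were seen, Hnrnph3, a splicing regulator, stood at 12.6, 14.5 and 15.9 CPM in CLPs and at 89.5, 90.5 and 66.1 CPM in B cell progenitors, with a difference of 2.5 ± 0.20 (adjusted p = 1.03e-05) and of 2.32 under both changes. Apex1, an endonuclease of base excision repair, stood at 28, 25.8 and 29.5 CPM against 105, 112 and 103 CPM (1.94 ± 0.12, adjusted p = 1.65e-06, and 2.07 under both changes). Hjurp, which loads the centromeric histone, stood at 28.9, 34.4 and 35 CPM against 59, 110 and 76.8 CPM. For Hnrnph3, Apex1 and Hjurp the populations did not overlap. The 10 lower genes included Gapdh, Rps16, Rpl27 and Rpl29 and also Cycs, the cytochrome c of the respiratory chain, at 60.1, 41.5 and 49.9 CPM against 38, 27.9 and 29 CPM. No member of the B lineage lists was among the 42. Of their 68 members, 5 overlap a gene on the opposite strand, Cd72 among them, and could not be called in this fit. With only 42 calls among 14335 genes, 0 among the remaining members is near the share over all genes.

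The step without both PLCgammas was then compared with that of each other genotype in 1 fit. By edgeR 0 genes differed from the wild-type step, 0 from the step without PLCgamma1 and 0 from that without PLCgamma2, with 356, 455 and 651 genes at an unadjusted p of 0.05 or less of 17212 tested, and DESeq2 called 0 in each. The wild-type step had 620 calls (3.6%, with 3.22% higher and 0.378% lower), that without PLCgamma1 513 (2.98%, with 2.39% higher and 0.593% lower) and that without PLCgamma2 572 (3.32%, with 2.63% higher and 0.697% lower). Of the 522 genes called higher, 375 (71.8%, and 67.6% of the 555 of wild type) were also called higher in wild type, which shares no library with this step, and of the 66 called lower 23 (34.8%, and 35.4% of 65), with 0 called in opposite directions. Gapdh, Pgam1, Ccne2 and Cd247 were among those called in both. Intervals of the difference were wide for the B lineage genes, for example -2.06 to 0.80 for Ebf1 and -0.01 to 3.13 for Dntt (1.56, adjusted p = 1), which stood at a mean of 941 CPM in wild-type CLPs and 457 CPM in wild-type B cell progenitors. The sum over the 6 CLP markers, which include Dntt, was 3356, 1203 and 1158 CPM in the 3 wild-type CLP libraries. The wild-type CLP mean of Dntt may therefore rest largely on 1 library. At intervals this wide a difference between genotypes in these B lineage genes could go undetected. That 0 genes were called does not show that the steps are alike.

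Libraries were also compared as wholes. Over 7776 genes without overlap and at 10 CPM or more, the root mean square log2 difference between both populations of one mouse was 0.39, 0.63 and 0.38 in mice 1, 2 and 3. Between mice it was 0.54, 0.51 and 0.46 within CLPs and 0.67, 0.49 and 0.43 within B cell progenitors. In mice 1 and 3 each library was therefore nearer to the other population of its mouse than to its own population in either other mouse, and in mouse 2, whose CLP library held the basophil genes, it was not.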

How the data were processed

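Poly(A) RNA of 24 libraries was sequenced by the authors and aligned to mm10 with STAR 2.5.0a per the labels, and the deposited files hold raw counts of reads on 24421 genes per library, where the 2 lines that name no gene stayed outside library sizes and tests. The counting program and its strand setting are not given in the sources used here. The test was the quasi-likelihood F test of edgeR 4.0.16 (R 4.3.3), after TMM scaling and filterByExpr and with p-values adjusted by Benjamini-Hochberg over all genes, in 1 fit of all 24 libraries, with the 12 mice as blocks and 1 population effect per genotype, which left 8 residual degrees of freedom. The mouse identifier in the labels gives the pairing. Deviations from the group means correlated between both libraries of a mouse at 0.348, 0.171 and 0.2 over genes, against -0.325 to 0.174 between different mice of the genotype and -0.35 to 0.53 within mice of the other genotypes. Between replicates chi-square over its degrees of freedom was 14.6 to 77.2, so none is a copy of another. Alternatives were other scalings, no filter, DESeq2 1.42.0, no block, the 6 libraries alone, thinned counts, other thresholds and each mouse left out. A count of 3 reads corresponds to 0.119 to 1.05 CPM in the 6 libraries, which covers counting error only. Exon overlaps, GC content and positions come from GENCODE M21 (GRCm38), where 23334 symbols matched 1 gene model, and sequences from RefSeq. The comparison and the gene lists were chosen with earlier results of these data known, and list members are described by counts and medians without a set test. Genes named are the 10 largest rises and falls among calls of 1 sign in 3 mice with at least 10 CPM in the higher population, up to 4 called members of a list, members of the B lineage, IL-7 receptor and phospholipase C lists, and gate and targeted genes; exceptions are marked, and 1 gene is not reported here. The fits were tested on simulated data. Figures were drawn with matplotlib 3.10.9.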

Additional observations from a re-analysis of the deposited data

Results flagged for a closer look

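The share of reads on no gene lies outside the tests of genes, and was higher in each B cell progenitor library without both PLCgammas, at 61.4%, 60.3% and 63% in mice 1, 2 and 3, than in any CLP library of the same mice, at 17.9% to 23.5%. The part of this difference in the calls was not tested. The groups hold 3 libraries each, too few to look for single libraries that lie far from the rest of their group.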

How the results depend on the processing

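The 588 calls, 522 higher and 66 lower with 9 list members, became 593, 518 and 75 with RLE size factors and 639, 571 and 68 with library sizes alone. Genes called lower numbered 34 without a filter on low counts, 184 by DESeq2 (875 calls), 164 on the 6 libraries alone with the mouse block (797 calls), and 110 when these were thinned to the smallest library (563 calls); called list members numbered 3, 15, 20 and 17. A log2 fold of at least 1 left 321 calls, 306 higher, 15 lower and 2 list members. Without 1 mouse each, 252 to 291 genes were called, 233 to 270 higher, 11 to 21 lower and 1 to 3 list members; without mouse 2 these were 252, 233, 19 and 2. Without overlapping genes the counts were 143, 127, 16 and 1; with the GC offset 358, 331, 27 and 3; with both 42, 32, 10 and 1, all 3 chosen after seeing the data. Without the mouse block as pairing 557 genes were called, 487 of them among the 588, and S100a8, Csf2ra and Pgam1 were not. Adjusted p alone gave 658. The tests against the other 3 genotypes gave 0 calls in each setting run. No named gene's call turned its direction, whereas the median of 16 of 30 lists changed sign in at least 1 setting, among them NK (-0.92 to 0.07) and mast cell genes (-0.85 to 0.07) without mouse 2; the other 14 of these medians were at most 0.142 in size. The cause of these shifts was not tested, beyond fewer genes or libraries in a fit. The depth of the B cell progenitor library of mouse 1, 2858724 reads, limits low genes.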
